A study of Mus musculus with 12 samples.

Results

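The DNA replication genes are a set of 39 named mouse genes whose products license, open and copy chromosomal DNA. They were taken by gene symbol from the annotation of the array, and 38 of the 39 had a probe set of their own among 22206. Mcm7 was measured only by a probe set that it shares with the microRNA genes Mir93 and Mir25, so it was left without a value. The samples were 12 arrays of 3T3-L1 cells, a mouse line of fibroblast-like preadipocytes that a hormone mix can drive to become fat cells. There were 2 arrays each for squalene (SQ), for its 4 ethylene glycol derivatives (mono-SQ to tetra-SQ) and for a control without compound. The compounds were labelled as given at 5 µM over 14 days. The treatment protocol names an induction medium with IBMX, dexamethasone and insulin, with or without compound, followed by insulin alone, while the control carries the label of no treatment and no induction. The labels do not say that both arrays of a group came from separate cultures, so the p values measure only the spread between these arrays, which may be technical.

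Replication starts when the origin recognition complex and its partners Cdc6 and Cdt1 load the ring-shaped MCM helicase onto DNA. Cdc45, the GINS complex and Mcm10 then turn that ring into an active helicase, and the primase, the polymerases and the sliding clamp Pcna copy the opened strands. Ribonucleotide reductase and thymidylate synthase supply the nucleotides. In dividing cells many of these genes are switched on by E2F transcription factors as the cell enters S phase. Preadipocytes placed in hormone mix pass through a short burst of division before they become fat cells, and mature fat cells rarely divide.

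The 10 compound arrays did not behave as 5 pairs. The 5 arrays labelled as the second replicate of a compound (here the second arrays) stood apart from the 5 labelled as the first replicate (the first arrays), and the first arrays lay near the controls. Markers of fat cells and of preadipocytes show this. Adipoq, which encodes adiponectin, lay at 14.05 to 15.32 (log2 signal) in the second arrays and at 17.46 to 18.07 in the first arrays, against 17.45 and 17.41 in the controls, which are labelled as without induction. Over the 12 adipocyte markers the median difference from the control mean was -3.10 to -2.57 on the log2 scale in the second arrays and -0.04 to 0.28 in the first arrays. Egr1, an immediate early gene, lay at 15.76 to 16.07 in the second arrays and at 9.73 to 10.18 in the first arrays, against 10.30 in both controls. The median of 5222 negative control probe sets was 6.48 to 6.66 in the second arrays and 6.09 to 6.28 in the first arrays, against 6.26 and 6.27 in the controls. Over 7 preadipocyte or fibroblast markers the median difference from the control mean was 0.415 to 0.595 in the second arrays and -0.725 to -0.03 in the first arrays. Among them Dlk1, a preadipocyte surface protein, lay at 17.82 to 18.18 in the second arrays and at 15.57 to 16.56 in the first arrays, against 16.61 and 16.57 in the controls. Col1a1, a fibrillar collagen chain, lay at 17.35 to 17.54 in the second arrays and at 15.71 to 16.61 in the first arrays, against 16.72 and 16.73 in the controls. Of these 7 markers, 3 were higher and 0 lower in the second arrays than in the first arrays by the limma test described below. Of all probe sets, 11.2% were higher and 9.96% lower by that test. The part that fat cell or preadipocyte content, immediate early response or background played in the results below was not tested, and in bulk RNA fewer cells of a type and less RNA per cell cannot be told apart. Of 8 macrophage markers, 7 lay below the negative control median in all 12 arrays. Since the 5 second arrays share whatever sets them apart, each comparison is given below by group and then by replicate number.

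The upstream sequences of the genes were searched for short stretches of letters. The genes themselves were chosen with earlier results of these data known. A window of 300 bases around the gene start (250 before it and 50 after) was available from RefSeq (GRCm38.p6) for 32 of the 39 genes, in 38 windows. The letters TTTGGCGC, TTTCCCGC, TTTCGCGC or TTTGCCGC, forms of the E2F site, were searched on both strands and may overlap each other. They stood in 14 of the 38 windows (36.8%), against 2.26% of all 32851 windows. The CCAAT letters stood in 60.5% of the windows of these genes, against 37.4% of all windows. Among genes with a window and a value, E2F letters stood near 8 of the 17 that were higher in the second arrays than in the first arrays by the test below, and near 5 of the 14 that were not. A match is a description of the letters and not a bound site. The 250 bases before the start are shown for 4 genes with high values in the second arrays, 3 with E2F letters (capitals) and Pcna without.
Mcm6, chr1:128359706-128359955, minus strand: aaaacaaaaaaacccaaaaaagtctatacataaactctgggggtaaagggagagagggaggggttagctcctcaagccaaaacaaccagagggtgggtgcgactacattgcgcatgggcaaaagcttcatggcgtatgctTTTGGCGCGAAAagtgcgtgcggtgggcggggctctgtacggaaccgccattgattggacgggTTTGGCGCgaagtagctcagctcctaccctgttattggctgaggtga
Mcm5, chr8:75109259-75109508, plus strand: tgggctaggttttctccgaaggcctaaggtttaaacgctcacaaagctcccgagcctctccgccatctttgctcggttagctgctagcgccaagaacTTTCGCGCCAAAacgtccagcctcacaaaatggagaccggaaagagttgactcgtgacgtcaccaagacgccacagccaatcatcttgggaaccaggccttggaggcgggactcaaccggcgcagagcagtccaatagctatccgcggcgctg
Pola1, chrX:93632156-93632405, minus strand: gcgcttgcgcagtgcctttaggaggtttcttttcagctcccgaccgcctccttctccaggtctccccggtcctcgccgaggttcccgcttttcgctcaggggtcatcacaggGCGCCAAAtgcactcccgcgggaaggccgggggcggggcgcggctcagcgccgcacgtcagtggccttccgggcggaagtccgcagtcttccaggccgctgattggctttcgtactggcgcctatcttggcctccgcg
Pcna, chr2:132253181-132253430, minus strand: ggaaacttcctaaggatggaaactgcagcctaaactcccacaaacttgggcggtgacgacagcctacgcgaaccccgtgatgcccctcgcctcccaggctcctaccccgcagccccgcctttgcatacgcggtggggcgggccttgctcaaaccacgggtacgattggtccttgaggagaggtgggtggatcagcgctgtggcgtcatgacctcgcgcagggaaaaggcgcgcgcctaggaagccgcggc
In Mcm6 the E2F letters begin 110, 106 and 47 bases before the start, and the first pair overlap. In Mcm5 they begin 153 and 149 bases before it and also overlap. In Pola1 they begin 138 bases before the start.

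Against control, no compound changed a DNA replication gene past the test. With limma over all 12 arrays and Benjamini-Hochberg adjustment over the 22206 probe sets, 0 of 38 genes passed an adjusted p of 0.05 for each of the 5 compounds, and 0% of all probe sets did. At an unadjusted p below 0.05 there were 2 genes for SQ, against 5.03% of all probe sets. The same count was 2 for mono-SQ (5.9%), 2 for di-SQ (5.57%), 2 for tri-SQ (6.68%) and 4 for tetra-SQ (8.49%). Rfc5 was among them for every compound. The genes leaned upward: 33 of 38 had a positive difference for SQ, 29 for mono-SQ, 32 for di-SQ, 27 for tri-SQ and 31 for tetra-SQ. Their median log2 difference was 0.31 for SQ, 0.31 for mono-SQ, 0.295 for di-SQ, 0.14 for tri-SQ and 0.325 for tetra-SQ, while the median over all probe sets lay between -0.025 and 0.01. All 5 comparisons share the same 2 control arrays.

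The lean was found in the second arrays. The median over the 38 genes was 0.875 in the second SQ array minus the second control, with 36 genes higher, and -0.175 in the first SQ array minus the first control, with 13 higher. The numbers were not taken to pair compounds with controls. Against the mean of both controls these SQ medians were 0.835 and -0.165. For mono-SQ the medians were 0.755 in the second pair of arrays and -0.13 in the first. For di-SQ they were 0.56 in the second pair and 0 in the first. For tri-SQ they were 0.43 in the second pair and -0.145 in the first, and for tetra-SQ 0.665 in the second pair and 0.085 in the first. With the second arrays as a replicate block within compounds, the medians against control became 0.03 for SQ, -0.10 for mono-SQ, -0.08 for di-SQ, -0.16 for tri-SQ and 0.02 for tetra-SQ, and again 0 genes passed. That block covers the second compound arrays and neither control. It therefore takes up the rise shared by the second arrays and compares each compound with control at the level of the first arrays. Medians near those of the first arrays follow from this coding and do not show that the lean is absent.

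**Figure D1:**
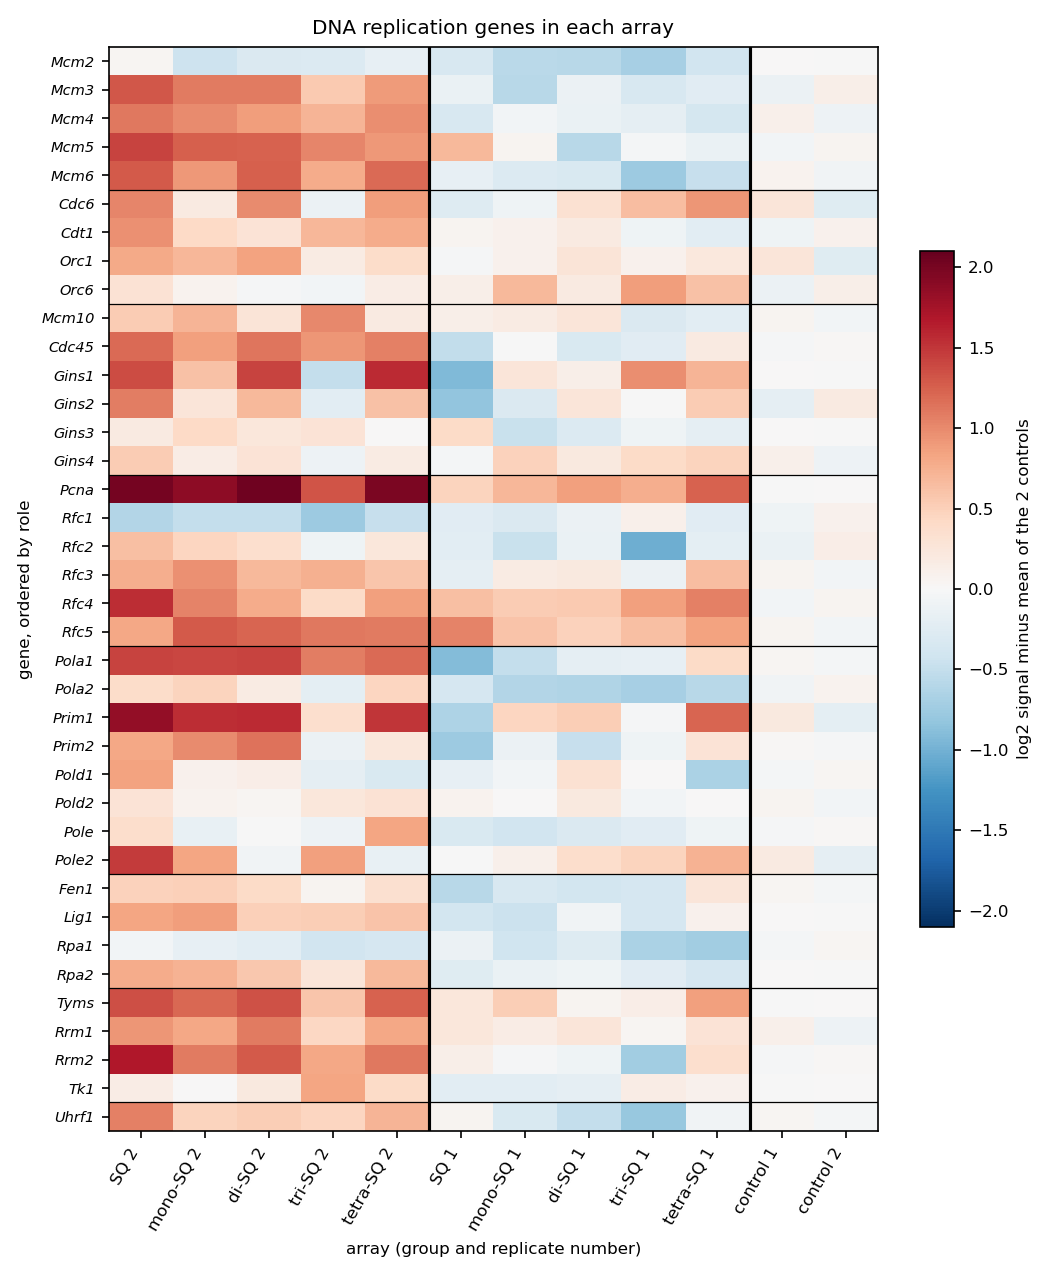
Log2 signal of each of the 38 DNA replication genes (rows, ordered by role, with lines between roles) in each of the 12 arrays (columns), minus the mean of the 2 control arrays; red is higher and blue lower. The 5 second arrays at the left are mostly red and the 5 first arrays are mixed, with medians over the genes of 0.38 to 0.84 in the second arrays and -0.17 to 0.14 in the first arrays.

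Pcna, the sliding clamp that holds polymerases on DNA, had the largest difference from control of the 38 genes for each of the 5 compounds. In the order SQ first, then mono-SQ, di-SQ, tri-SQ, and last tetra-SQ, which is kept for every gene below, its log2 signal was 14.49, 14.36, 14.52, 13.79 and 14.45 in the second arrays and 12.95, 13.18, 13.34, 13.24 and 13.72 in the first arrays, against 12.46 and 12.49 in the controls. All 10 compound arrays lay above both controls, and the second arrays lay above the first arrays with no overlap. Its log2 difference from control ranged from 1.04 ± 0.60 (SE) for tri-SQ to 1.61 ± 0.60 for tetra-SQ, and its limma adjusted p for tetra-SQ was 0.573.

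The clamp loader subunits Rfc4 and Rfc5, which open the clamp and place it on DNA, had a like arrangement. Rfc4 had signals of 9.08, 8.57, 8.31, 7.92 and 8.39 in the second arrays and 8.15, 8.06, 8.07, 8.38 and 8.58 in the first arrays, against 7.46 and 7.59 in the controls. Rfc5 had 8.14, 8.63, 8.55, 8.45 and 8.43 in the second arrays and 8.37, 7.94, 7.82, 7.97 and 8.18 in the first arrays, against 7.4 and 7.27 in the controls. Every compound array of both genes lay above both controls, while the second and first arrays overlapped. All compound arrays lay above both controls for 4 of the 38 genes, Pcna, Rfc4, Rfc5 and Tyms, against 3.91% of all probe sets. The log2 difference from control for SQ was 1.09 ± 0.33 for Rfc4, and for mono-SQ it was 0.95 ± 0.33 for Rfc5, with limma adjusted p values of 0.92 and 0.837.

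Prim1, the catalytic subunit of the primase that lays down RNA primers, varied more between arrays. Its signal was 10.62, 10.32, 10.34, 9.13 and 10.27 in the second arrays and 8.12, 9.22, 9.28, 8.75 and 10 in the first arrays, against 8.97 and 8.57 in the controls. The second tri-SQ array lay below 3 of the first arrays, and the first tetra-SQ array lay above the second tri-SQ array. Its log2 difference from control was 1.37 ± 0.72 for tetra-SQ, 1.04 ± 0.72 for di-SQ and 1.00 ± 0.72 for mono-SQ, with limma adjusted p values of 0.637, 0.919 and 0.862.

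Mcm5, a subunit of the helicase ring, had signals of 9.68, 9.51, 9.49, 9.28 and 9.16 in the second arrays and 8.93, 8.32, 7.68, 8.22 and 8.11 in the first arrays, against 8.20 and 8.31 in the controls. Both SQ arrays were the highest of their replicate number, and the SQ difference from control was 1.05 ± 0.66 (limma adjusted p = 0.92). Pole2, an accessory subunit of the leading-strand polymerase epsilon, had 7.95, 7.32, 6.41, 7.35 and 6.33 in the second arrays and 6.47, 6.59, 6.86, 6.95 and 7.21 in the first arrays, against 6.67 and 6.30 in the controls. All 3 sets of Pole2 arrays overlapped, and its tri-SQ difference from control was 0.67 ± 0.50 (limma adjusted p = 0.858).

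Gins1, a subunit of the GINS complex, lay below the negative control median in all 12 arrays. It had 5.62, 4.86, 5.67, 3.75 and 5.81 in the second arrays and 3.32, 4.50, 4.38, 5.23 and 4.97 in the first arrays, against 4.26 and 4.24 in the controls. Its tetra-SQ difference from control of 1.14 ± 0.76 was the largest of that comparison after Pcna and Prim1 (limma adjusted p = 0.696), and it rests on signals not well above background.

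The authors' deposited table gives a fold change and p values for each compound against control. It held no DNA replication gene at a false discovery rate below 0.05, and its smallest rate among the 38 genes was 0.572, for tetra-SQ. The p values of that table rest on the same arrays and differed from the limma p values by at most 0.0147. They are therefore not separate evidence.

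Structurally, the 5 compounds differ in whether squalene carries ethylene glycol, with mono-, di-, tri- and tetra-SQ named by prefix, and all were compared at the same dose and time. Of the 10 pairs, 0 had a DNA replication gene past the limma test, where 0% of all probe sets passed. At an unadjusted p below 0.05 there was 1 gene, Pold1, in tetra-SQ minus SQ (3.69% of all probe sets) and in tetra-SQ minus di-SQ (2%). There were 0 genes in mono-SQ minus SQ (2.34%), di-SQ minus SQ (2.34%), tri-SQ minus SQ (4.98%), di-SQ minus mono-SQ (1.85%) and tri-SQ minus mono-SQ (3.69%). The same held for tetra-SQ minus mono-SQ (2.33%), tri-SQ minus di-SQ (4.5%) and tetra-SQ minus tri-SQ (5.26%). This held also with p values adjusted over all probe sets and all 10 pairs together, where the smallest limma adjusted p among these genes was 1, or 0.578 with the replicate block within compounds. The intervals were wide, so likeness of the compounds is not shown.

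In the comparisons by group, tri-SQ lay below each of the other compounds for most of the 38 genes. Tri-SQ minus SQ had a median log2 difference of -0.20, with 30 of 38 genes lower, and tri-SQ minus di-SQ had -0.16, with 30 lower. Tri-SQ minus mono-SQ had -0.17, with 27 lower, and tetra-SQ minus tri-SQ had 0.27, with 28 higher. The medians of all probe sets in these 4 pairs lay between -0.02 and 0.01. The second tri-SQ array was the lowest of the 5 second arrays for 24 of 38 genes, against 26.4% of all probe sets, while the second SQ array was the highest for 22, against 18.9%. Among the first arrays SQ was the lowest for 15 genes (25.6% of all probe sets) and tetra-SQ the highest for 16 (19.9%). The first tri-SQ array was the lowest of the first arrays for only 9 of 38 genes, near its share of 21.1% of all probe sets.

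The pairs looked different by replicate number. Tri-SQ minus SQ had a median of -0.50 in the second arrays, with 34 of 38 genes lower, and of 0.075 in the first arrays, with 16 lower. Tetra-SQ minus SQ had -0.19 in the second arrays and 0.23 in the first arrays. Tetra-SQ minus tri-SQ had medians on the same side of 0, 0.275 in the second arrays and 0.205 in the first arrays.

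**Figure D2:**
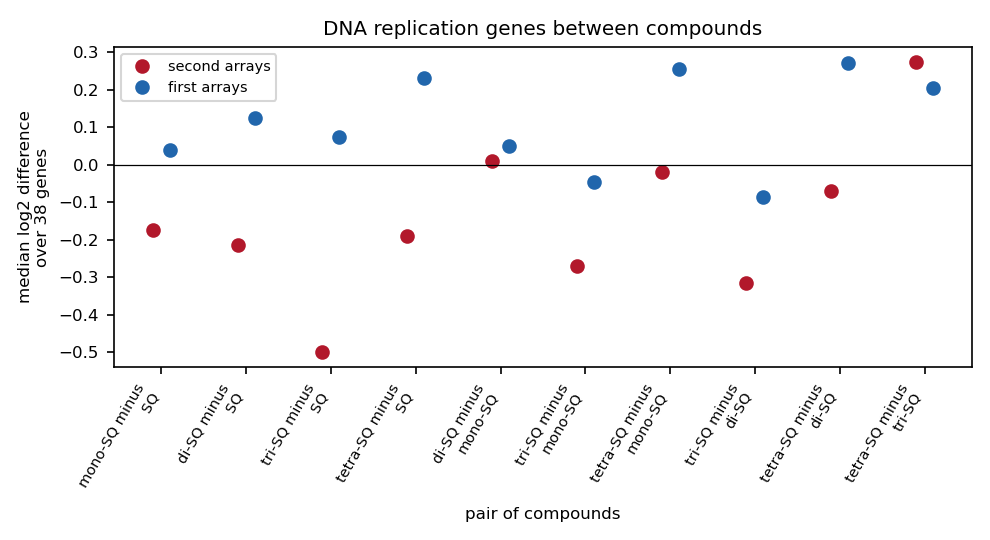
Median log2 difference over the 38 DNA replication genes (y axis) for each of the 10 pairs of compounds (x axis), in the 5 second arrays (red) and the 5 first arrays (blue). Each point is 1 array minus 1 array, and for all 4 derivatives minus SQ the points of the second and first arrays lie on opposite sides of 0.

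The 3 largest differences in each direction over the compound pairs were those of Prim1, Gins1, Rrm2 and Pold1. Prim1 had a tetra-SQ minus tri-SQ difference of 1.195 ± 0.72, with a 95% interval of -0.42 to 2.81, and a tri-SQ minus di-SQ difference of -0.87 ± 0.72, with an interval of -2.49 to 0.75. Gins1 had a tetra-SQ minus SQ difference of 0.92 ± 0.76 (interval -0.78 to 2.62) and a tetra-SQ minus tri-SQ difference of 0.90 ± 0.76 (interval -0.80 to 2.60). For Rrm2 the tri-SQ minus SQ difference was -0.86 ± 0.70, with an interval of -2.44 to 0.72.

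Pold1, the catalytic subunit of polymerase delta, was the one of these 4 whose interval left out 0. Its signal was 6.06, 5.30, 5.35, 5.03 and 4.89 in the second arrays and 5.05, 5.16, 5.53, 5.23 and 4.55 in the first arrays, against 5.17 and 5.26 in the controls. Tetra-SQ was the lowest compound in both sets of arrays, and the tetra-SQ minus SQ difference was -0.835 ± 0.31, with an interval of -1.54 to -0.13 and an limma adjusted p of 1. All 12 Pold1 signals lay below the negative control median.

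Between the second and first arrays the DNA replication genes separated widely. Fitted on the 10 compound arrays with the compound as a block, 20 of 38 genes were higher in the second arrays at an limma adjusted p below 0.05, against 11.2% of all probe sets, and 0 were lower, against 9.96%. At an unadjusted p below 0.05, Rfc1 and Orc6 were lower, 2 genes, against 15.1% of all probe sets. Their median log2 difference was 0.625, with 35 of 38 higher, and the median of all probe sets was -0.019. For 15 genes all 5 second arrays lay above all 5 first arrays, against 9.89% of all probe sets, and Rfc1 was the 1 gene with the opposite arrangement, against 8.86%.

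**Figure D3:**
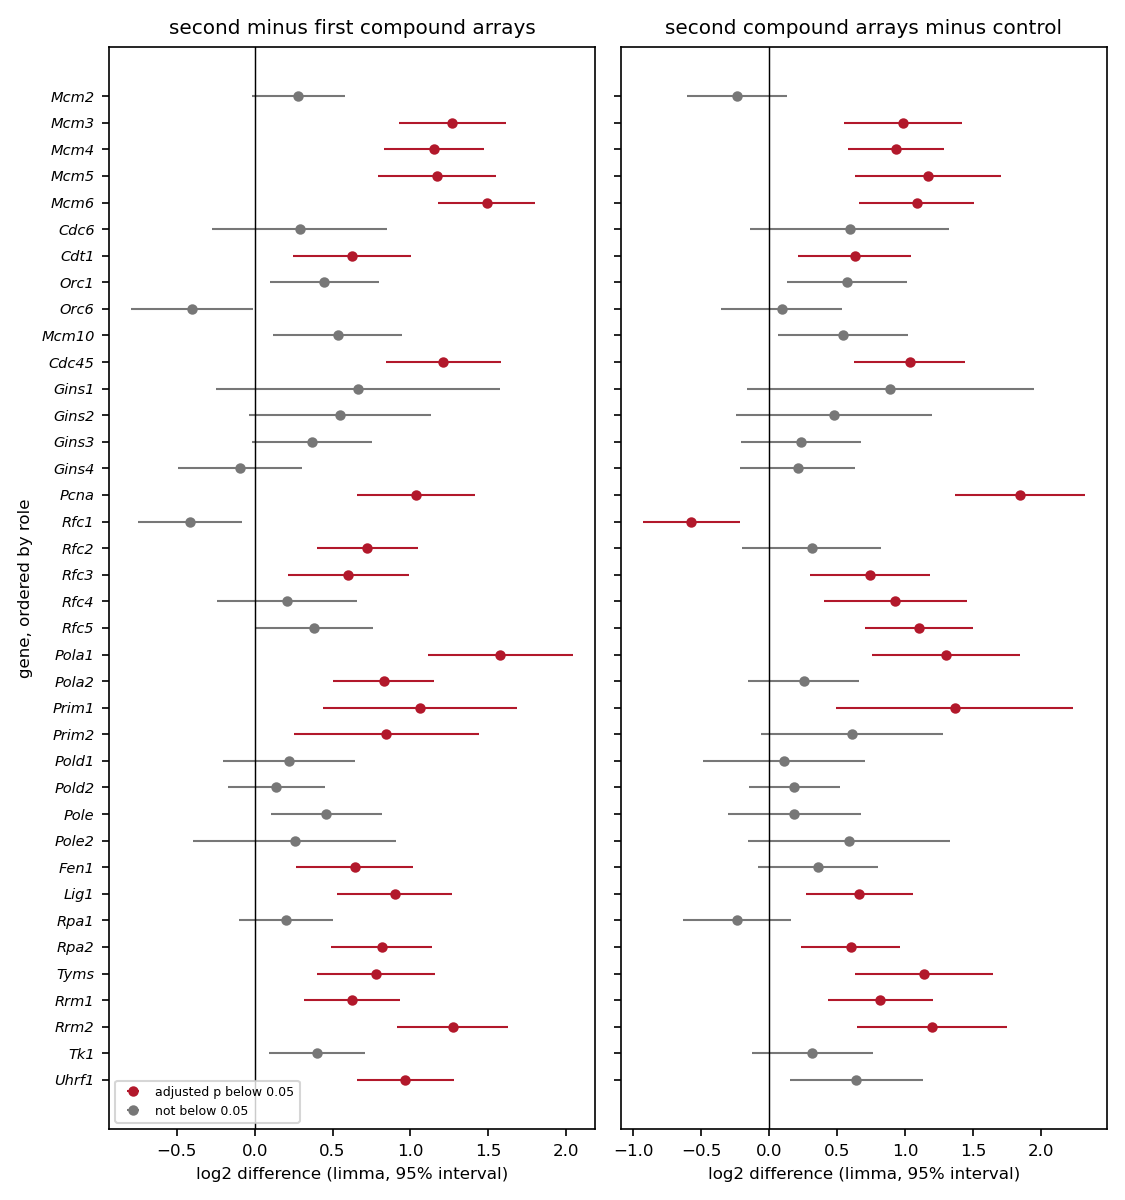
Log2 difference of each of the 38 DNA replication genes (rows, ordered by role) with its 95% limma interval, for the second arrays minus the first arrays (left) and the second arrays minus the controls (right). Red points have an adjusted p below 0.05: 20 genes on the left, all above 0, and 18 on the right, of which Rfc1 lies below 0.

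Of the 5 measured subunits of the MCM helicase ring, 4 rose, and the median difference of the 5 was 1.17. Mcm6 had 11.26, 10.87, 11.22, 10.75 and 11.15 in the second arrays and 9.80, 9.67, 9.65, 9.20 and 9.48 in the first arrays, against 10.04 and 9.89 in the controls. Mcm3 had 8.61, 8.39, 8.39, 7.85 and 8.19 in the second arrays and 7.16, 6.72, 7.17, 6.96 and 7.07 in the first arrays, against 7.18 and 7.42 in the controls. In both genes every second array lay above, and every first array below, both controls.

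The differences between the second and first arrays were 1.49 ± 0.14 for Mcm6 (2.81-fold, limma adjusted p = 3.05e-05) and 1.27 ± 0.16 for Mcm3 (2.41-fold, limma adjusted p = 0.000187). Mcm5, with the values given above, rose by 1.17 ± 0.17 and Mcm4 by 1.15 ± 0.14. Mcm2 had a difference of 0.28 ± 0.13 and did not pass (limma adjusted p = 0.19). In Mcm2 the first arrays, at 9.59 to 9.96, all lay below the controls at 10.30 and 10.28, while the second arrays, at 9.85 to 10.33, spanned them.

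Among origin recognition and licensing factors 1 of 4 rose. Cdt1, which helps load the MCM ring, was 0.62 ± 0.17 higher in the second arrays, at 7.65 to 8.32 there and 7.13 to 7.55 in the first arrays. It no longer passed without either SQ array (0.55, limma adjusted p = 0.0652), either tri-SQ array (0.585, limma adjusted p = 0.0602) or either tetra-SQ array (0.53, limma adjusted p = 0.103). Orc1, the largest subunit of the origin recognition complex, had a difference of 0.45 ± 0.16 (limma adjusted p = 0.0709) and Cdc6 one of 0.29 ± 0.25. Cdc6 lay near background, above the negative control median in 7 of the 12 arrays by the series matrix values. Orc6, the smallest subunit, pointed the other way, with 9.04, 8.81, 8.71, 8.67 and 8.88 in the second arrays and 8.85, 9.41, 8.92, 9.60 and 9.34 in the first arrays, against 8.60 and 8.86 in the controls. The second and first arrays of Orc6 overlapped, and its difference was -0.40 ± 0.18 (limma adjusted p = 0.148). Without either SQ array it was -0.55, with an limma adjusted p of 0.0457.

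Of 6 helicase activation factors 1 rose. Cdc45, which joins the MCM ring to make it active, had 9.68, 9.36, 9.62, 9.43 and 9.56 in the second arrays and 7.98, 8.49, 8.18, 8.25 and 8.69 in the first arrays, against 8.47 and 8.52 in the controls. The second arrays lay above all other arrays with no overlap, and the difference from the first arrays was 1.21 ± 0.17 (2.32-fold, limma adjusted p = 0.000387). Its partners in the active helicase, the GINS subunits, did not pass: the differences were 0.66 ± 0.41 for Gins1, 0.55 ± 0.26 for Gins2, 0.37 ± 0.17 for Gins3 and -0.09 ± 0.18 for Gins4. Gins4 had 10.79, 10.40, 10.54, 10.14 and 10.43 in the second arrays and 10.21, 10.74, 10.45, 10.66 and 10.71 in the first arrays, against 10.36 and 10.14 in the controls. Only the SQ and di-SQ compounds had a higher Gins4 signal in the second array than in the first. Mcm10, which helps the helicase start, had 0.53 ± 0.19 (limma adjusted p = 0.07).

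The clamp and its loader did not move as 1 unit. Pcna rose by 1.04 ± 0.17 (2.05-fold, limma adjusted p = 0.00134), Rfc2 by 0.72 ± 0.15 and Rfc3 by 0.60 ± 0.17, while Rfc4 had a difference of 0.21 ± 0.20 and Rfc5 of 0.38 ± 0.17, and neither passed. Rfc3 lay near background, above the negative control median in only 2 of the 12 arrays by the series matrix values. The Rfc3 difference no longer passed without either array of SQ, mono-SQ, di-SQ or tri-SQ, at 0.51 to 0.63 with limma adjusted p values of 0.0746 to 0.114, and passed without either tetra-SQ array (0.77). Rfc1, the large subunit of the loader, had 12.29, 12.40, 12.41, 12.14 and 12.42 in the second arrays and 12.67, 12.60, 12.79, 13.01 and 12.66 in the first arrays, against 12.81 and 13.00 in the controls. All second arrays of Rfc1 lay below all first arrays and both controls. Its difference between the second and first arrays was -0.41 ± 0.15 (limma adjusted p = 0.0809), and without the compound block, or with dim probe sets removed, the same difference passed with limma adjusted p values of 0.0365 and 0.0341.

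All 4 genes of polymerase alpha and its primase rose. Pola1, the catalytic subunit, had the largest difference of all 38 genes, with 9.22, 9.20, 9.21, 8.87 and 8.99 in the second arrays and 6.89, 7.29, 7.60, 7.62 and 8.20 in the first arrays, against 7.83 and 7.76 in the controls. Every second array of Pola1 lay above every other array, and the first arrays spread around the controls. The Pola1 difference was 1.58 ± 0.21 (2.99-fold, limma adjusted p = 0.000338), Prim1 rose by 1.06 ± 0.28, Prim2 by 0.85 ± 0.27 and Pola2 by 0.83 ± 0.15. With the compound as a block, leaving out either array of a compound removes that compound from the difference. Prim1 then no longer passed without a mono-SQ array (1.05, limma adjusted p = 0.0642) or a di-SQ array (1.06, limma adjusted p = 0.0616), and without an SQ array it passed at 0.70. Prim2 no longer passed without an SQ array (0.66, limma adjusted p = 0.131), a mono-SQ array (0.78, limma adjusted p = 0.141) or a di-SQ array (0.65, limma adjusted p = 0.176). Pola1 and Pola2 passed with each array left out. The subunits of polymerases delta and epsilon did not pass, with differences of 0.22 ± 0.19 for Pold1, 0.14 ± 0.14 for Pold2, 0.46 ± 0.16 for Pole and 0.26 ± 0.29 for Pole2. Pold1 lay below the negative control median in all 12 arrays. Pole, at 5.38 to 6.62, also did so by the signals given here, and in 11 arrays by the series matrix values, the scale on which the negative controls are held.

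Of 4 nucleotide supply enzymes 3 rose. Rrm2, the regulated small subunit of ribonucleotide reductase, had 11.51, 10.91, 11.12, 10.64 and 10.94 in the second arrays and 9.95, 9.80, 9.74, 9.10 and 10.17 in the first arrays, against 9.80 and 9.85 in the controls. The lowest second array, that of tri-SQ, still lay above the highest first array, and the difference was 1.27 ± 0.16 (2.41-fold, limma adjusted p = 0.000229). Tyms, thymidylate synthase, rose by 0.78 ± 0.17 and Rrm1, the large reductase subunit, by 0.63 ± 0.14. Tk1, the cytosolic thymidine kinase, had 0.40 ± 0.14 (limma adjusted p = 0.0695), with all 12 signals below the negative control median.

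On the lagging strand and on single-stranded DNA 3 of 4 genes rose. Lig1, the ligase that seals Okazaki fragments, rose by 0.90 ± 0.17, Rpa2, a subunit of the single-strand binding protein, by 0.82 ± 0.15, and Fen1, the flap nuclease, by 0.64 ± 0.17. Fen1 no longer passed without either array of SQ, mono-SQ or di-SQ, at 0.53 to 0.605 with limma adjusted p values of 0.0607 to 0.0815, while Lig1 and Rpa2 passed with each array left out. Rpa1, the large subunit of the same binding protein, had 0.20 ± 0.14 (limma adjusted p = 0.376). Uhrf1, which guides the copying of DNA methylation behind the fork, rose by 0.97 ± 0.14 (limma adjusted p = 0.000596), at 9.78 to 10.40 in the second arrays and 8.54 to 9.40 in the first arrays.

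**Figure D4:**
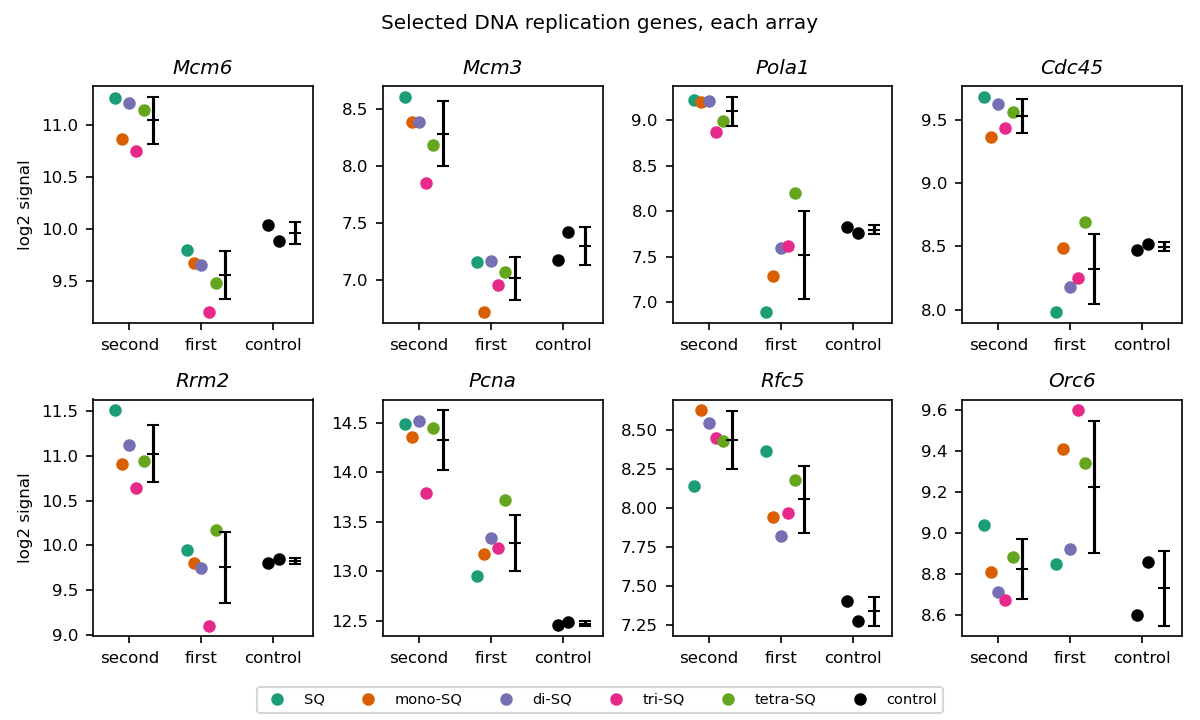
Log2 signal (y axis) of 8 DNA replication genes in the 5 second arrays, the 5 first arrays and the 2 control arrays, coloured by compound, with mean and SD beside each set; the y axes do not start at 0. Mcm6, Mcm3, Pola1, Cdc45 and Rrm2 lie higher in the second arrays than in all other arrays, Pcna and Rfc5 lie above control in both sets, and Orc6 overlaps.

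Set against the controls, the second arrays again carried most of the change. In a fit of the second arrays, the first arrays and the controls as 3 groups, 17 of 38 genes were higher in the second arrays, against 9.69% of all probe sets, and Rfc1 was lower (-0.57 ± 0.17, limma adjusted p = 0.0242), against 9.28%. Pcna had the largest difference, 1.85 ± 0.22 (3.6-fold, limma adjusted p = 2.01e-05). Of these 17 genes, 15 were also among the 20 higher in the second arrays than in the first arrays, and Rfc4 (0.93 ± 0.25) and Rfc5 (1.11 ± 0.19) were the other two. The second arrays lay above both controls with no overlap for 21 genes, against 18.6% of all probe sets, and below both for Rfc1 and Rpa1, against 19.5%. Without the first control array 8 genes were higher and without the second control array 10, with Rfc1 no longer past the test in either fit. Cdc45, Mcm4, Mcm6, Pcna, Pola1, Rfc5 and Tyms passed in both. Of the 17 genes, Cdt1 also did not pass without the second SQ or second tetra-SQ array, nor Prim1 without the second SQ, mono-SQ, di-SQ or tetra-SQ array, with limma adjusted p values of 0.0516 to 0.0666.

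The first arrays had 0 genes past the test against control, higher or lower, against 0% of all probe sets higher and 0.0045% lower. Their median difference was -0.08, with 16 of 38 higher, and 7 genes had an unadjusted p below 0.05, against 12.2% of all probe sets. Pcna (0.81 ± 0.22), Rfc4 (0.72 ± 0.25), Rfc5 (0.72 ± 0.19) and Orc6 (0.49 ± 0.21) pointed up among these 7. Pola2 (-0.58 ± 0.19), Mcm2 (-0.52 ± 0.17) and Rpa1 (-0.44 ± 0.19) pointed down. Pcna, Rfc4, Rfc5 and Tyms were the 4 genes with all 5 first arrays above both controls, against 9.66% of all probe sets. The reverse held for 7 genes, Mcm2, Mcm3, Mcm6, Pola2, Pole, Rpa1 and Rpa2, against 10.7%. For 3 of these, Mcm3, Mcm6 and Rpa2, all second arrays lay above both controls, an arrangement found in 1.7% of all probe sets.

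Genes around the pathway moved with the set in part. The counts below stand beside 11.2% of all probe sets higher and 9.96% lower in the second arrays than in the first arrays. Of 44 measured other replication genes, 18 were higher and 4 lower in the second arrays than in the first arrays by the same limma test, with a median of 0.32. The 2 with the largest differences were lower: Pole4, a small subunit of polymerase epsilon, at -1.41 ± 0.20, and Rpa3, the smallest subunit of the single-strand binding protein, at -1.35 ± 0.25. Their larger partner subunits Pole2 and Rpa2 had 0.26 ± 0.29 and 0.82 ± 0.15. Mitosis genes leaned further, with 20 of 21 higher, 0 lower and a median of 1.35, among them the spindle motor Kif11 (1.65 ± 0.18) and the topoisomerase Top2a (1.63 ± 0.19). Of 30 probe sets of 27 G1/S regulators, 9 were higher and 7 lower, with a median of 0.15. Rb1, which holds E2F factors in check, was lower by 2 of its 3 probe sets (-1.91 ± 0.15 and -0.83 ± 0.17), while the third had -0.25 ± 0.15 and did not pass (limma adjusted p = 0.293), and the cyclin kinase inhibitor Cdkn2c was lower (-1.83 ± 0.30).

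**Figure D5:**
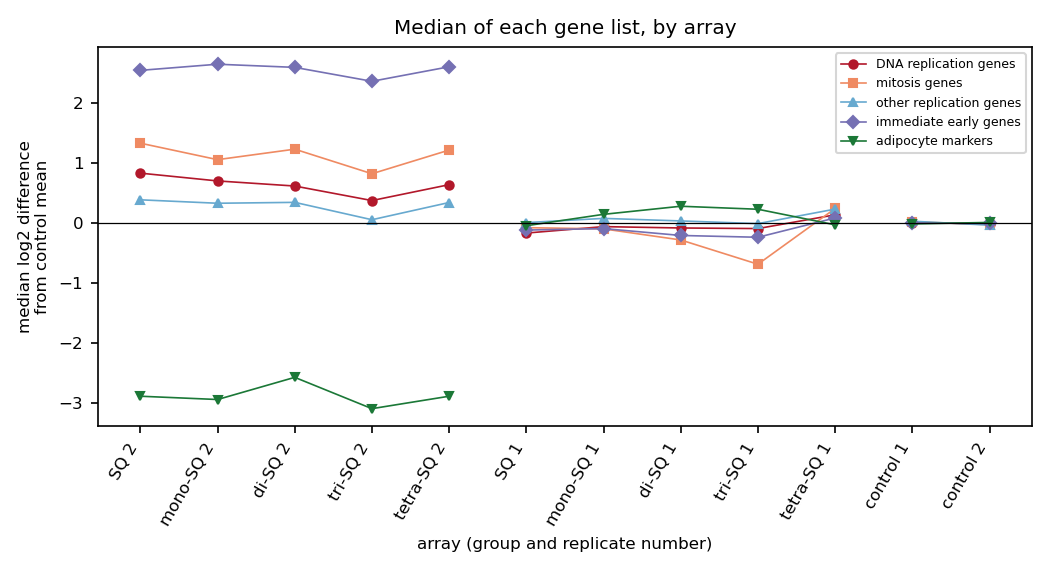
Median log2 difference from the mean of the 2 controls (y axis) for 5 gene lists in each of the 12 arrays (x axis; lines join arrays for reading only). In the 5 second arrays the DNA replication genes lie at 0.38 to 0.84, between the mitosis genes above them and the other replication genes below, while immediate early genes lie at 2.37 to 2.65 and adipocyte markers at -3.10 to -2.57.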

How the data were processed

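The data are 12 Clariom S mouse arrays. Per the series' design text, the authors ran SST-RMA normalization (Transcriptome Analysis Console 4.0.1). The deposited table holds log2 signals, given to 2 decimals, with array annotation na36 per the file headers. A second table of the authors gives, per the file headers, a p-value, a false discovery rate and a signed fold change (a score that is negative where the compound is lower) for each compound over control; its test is not given in the sources used here. Of 22206 probe sets, 21367 carry 1 gene symbol, 836 several and 3 none, and genes were named only from the first kind.

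All fits used limma 3.58.1 in R 4.3.3 (lmFit, eBayes, two-sided moderated tests) on the deposited log2 signals of all probe sets, with no filter, and Benjamini-Hochberg adjustment over them at 0.05. Group comparisons used 6 groups (6 residual degrees of freedom). The second arrays against the first arrays used the 10 compound arrays with compound as a block (4), and each set against control used 3 groups (9). Errors after ± are limma standard errors, and the number of arrays limits their precision. Fits were tested on simulated data with independent noise in each array. The simulation therefore does not cover deviations shared between arrays, which are described below. Alternatives were the series matrix values, quantile normalization, no dim probe sets, replicate blocks, no compound block and each array left out.

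Same-numbered compound arrays deviated together (r of 0.48 to 0.72 over 10 pairs of compounds, across probe sets) but not with the same-numbered control (r of -0.0007 to 0.0024), so the numbers were not taken to pair all groups. The members and lists were chosen with earlier results of these data known. Values in every array are given for the 3 members with the largest difference in each comparison with control, the 5 largest and 3 smallest differences between the second and first arrays, and the 3 largest differences in each direction over the compound pairs; other lists give the 2 genes with the largest difference between the second and first arrays. Promoter windows are from RefSeq (GRCm38.p6).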

Additional observations from a re-analysis of the deposited data

Results flagged for a closer look

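In 76 checks of a highest or lowest array within 5 second or 5 first arrays, the second tri-SQ array stood apart from its nearest neighbour in 3 genes, by Dixon's gap test. Pcna was 13.79 there, against 14.36 in the next lowest second array. Prim1 was 9.13, against 10.27, and Tyms was 9.77, against 10.40. Chance gives about 1 such case in 20 independent checks. These checks share arrays, and all 3 cases were the lowest value in the same array. The count therefore cannot decide whether that array stands apart.

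In Mcm3, Mcm6 and Rpa2 all 5 second arrays lay above and all 5 first arrays below both controls. The first arrays did not pass the test against control for any of the 3, so a fall there is not shown. The difference between the second and first arrays was 1.27 for Mcm3, 1.49 for Mcm6 and 0.82 for Rpa2 on the log2 scale, each past the limma test.

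The negative control probe sets, which no comparison uses, had a median of 6.48 in the lowest of the second arrays, against 6.27 in the higher control array. Its part in the differences was not tested.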

How the results depend on the processing

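With 2 arrays a group, single arrays set much of what can be called, and genes near background (Gins1, Pold1, Tk1, Pole, Rfc3, Cdc6) are measured least firmly. Counts of genes past the test stayed at 0 for each compound against control and each pair of compounds, under the series matrix values, quantile normalization, removal of dim probe sets, both replicate blocks and each array left out. Genes higher in the second arrays than in the first arrays numbered 20, and 16 to 20 with 1 array left out. The count of lower genes was 0, but 1 (Rfc1) without dim probe sets and 1 (Rfc1) with no compound block, and 0 to 1 with 1 array left out. Genes higher in the second arrays than in control numbered 17, and 8 to 20 with 1 array left out (8 without control replicate 1, 10 without control replicate 2); lower genes numbered 0 to 1. The first arrays against control stayed at 0. With 1 array left out, the median of the 38 genes against control was -0.165 to 0.835 for SQ, -0.0575 to 0.705 for mono-SQ, -0.08 to 0.62 for di-SQ, -0.09 to 0.3775 for tri-SQ and 0.14 to 0.6425 for tetra-SQ; it was 0.545 to 0.6775 for the second against the first arrays, 0.546 to 0.69 for the second arrays against control and -0.119 to -0.0462 for the first arrays against control. The median for tetra-SQ minus tri-SQ was 0.158 under quantile normalization, against 0.2725. Rpa2 in the second arrays against control had 0.48 with the series matrix values (limma adjusted p = 0.0615). Signs turned when 1 array was left out for Gins1 in tetra-SQ minus SQ (-0.23 to 2.07) and for Gins4 between the second and first arrays (-0.2625 to 0.0125), neither past the test. The medians of all 10 compound pairs also turned sign when 1 array was left out. They ran from -0.785 to 0.2075 for tri-SQ minus SQ and from -0.54 to 0.155 for tri-SQ minus mono-SQ. For tri-SQ minus di-SQ they ran from -0.5875 to 0.13, and for tetra-SQ minus tri-SQ from -0.085 to 0.505. Leaving out 1 array leaves its compound with only a second or only a first array, set against a compound with both. The gap between the second and first arrays then enters the difference. For mono-SQ minus SQ the median was -0.6175 without the first SQ array and 0.34 without the second SQ array. The turns therefore follow from the arrays left in and do not describe the compounds. Each group holds 1 array of each replicate number, so the replicate block over all arrays could not move the medians against control (0.3125 for SQ and 0.14 for tri-SQ). It could change only the estimated spread and, like the block within compounds, changed no call.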
